A study of Mus musculus with 4 samples.

Results

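Solvent-treated mouse embryonic stem cells (ESCs) of the TBV2 line were described at baseline from 2 of the 4 RNA-seq samples of the study, chosen by the titles that name solvent. The cells had been grown on a feeder layer with LIF, on gelatin-coated plates, and were kept for 24 h with solvent before the RNA was taken. The second library is called a duplicate in its title and is replicate 2 here, and no source used here says whether the 2 libraries came from separate cultures. The other 2 samples received MS-275, a histone deacetylase inhibitor, and no value of theirs is used. TBV2 is an established line that depends on feeder cells, so fibroblast RNA could be present in these bulk samples. The paper used TBV2 cells that were wild type or carried an EGFP transgene. No transgene, deletion or selection marker is named for these libraries. The vehicle is left as solvent, since the sources used here name more than 1.

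ESCs are taken from the inner cell mass of the blastocyst and can form every tissue of the embryo. A small circuit of transcription factors, with Pou5f1 (Oct4), Sox2 and Nanog at its centre, keeps them in this state, and Esrrb, Zfp42 (Rex1), Klf2, Klf4 and Tbx3 mark its naive form in the mouse. LIF acts through its receptor and Stat3 to hold the circuit in place, while genes of the later lineages stay at low levels until differentiation starts.

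The 4 markers of the stem cell state all stood in the highest 10% of the listed genes in both libraries. Nanog, a homeobox factor, had a value of 0.772 in replicate 1 and 3.08 in replicate 2, at ranks 102 and 99 from the top. Pou5f1, the POU factor that defines the pluripotent lineage, had 0.727 and 2.33, at ranks 145 and 175. Esrrb, an orphan nuclear receptor, had 0.858 and 1.32, at ranks 59 and 430. Zfp42, a zinc finger protein lost early in differentiation, had 0.543 and 2.18, at ranks 618 and 195. Nanog and Pou5f1 kept their order in both libraries, while Esrrb was the highest of the 4 in replicate 1 and the lowest in replicate 2. The labelled cell type therefore had its defining transcripts at high rank in each library. On the mm9 genome, per GENCODE M1, Pou5f1 lies on chromosome 17 from 35642982 to 35647721, Nanog on chromosome 6 from 122657507 to 122664651, Esrrb on chromosome 12 from 87702067 to 87862578 and Zfp42 on chromosome 8 from 44380422 to 44392363.

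Windows at the annotated starts of the 4 markers are shown because they and the windows beside them span a wide range of CpG content. Beside them are those of Sox2, of the highly expressed nucleolin gene (Ncl) and of an olfactory receptor gene at 0 (Olfr1197). The bases after the annotated start of Olfr1197 open with ATG. That start may therefore mark the coding sequence, and its window is not shown to be a promoter. Each window runs from 250 bases before the annotated start to 50 bases after it, read 5′ to 3′ on the gene's strand in RefSeq's GRCm38.p6, with every CG dinucleotide in capitals. The windows lie at chr17:35505782-35506081 (Pou5f1, plus strand), chr6:122707239-122707538 (Nanog, plus strand), chr12:86360867-86361166 (Esrrb, plus strand), chr8:43306960-43307259 (Zfp42, minus strand), chr3:34649745-34650044 (Sox2, plus strand), chr1:86359406-86359705 (Ncl, minus strand) and chr2:88729548-88729847 (Olfr1197, minus strand).
Pou5f1: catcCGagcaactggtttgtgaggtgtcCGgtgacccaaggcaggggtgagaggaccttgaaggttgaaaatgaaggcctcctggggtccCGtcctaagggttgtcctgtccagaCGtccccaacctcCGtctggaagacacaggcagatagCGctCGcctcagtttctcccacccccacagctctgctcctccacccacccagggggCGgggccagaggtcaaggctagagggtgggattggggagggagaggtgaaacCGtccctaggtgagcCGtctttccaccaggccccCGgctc
Nanog: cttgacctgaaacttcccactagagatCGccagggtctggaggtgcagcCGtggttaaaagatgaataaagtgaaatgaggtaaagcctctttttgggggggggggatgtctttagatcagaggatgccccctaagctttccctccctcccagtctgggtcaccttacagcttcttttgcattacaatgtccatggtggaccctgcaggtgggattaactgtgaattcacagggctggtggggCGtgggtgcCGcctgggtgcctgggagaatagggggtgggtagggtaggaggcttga
Esrrb: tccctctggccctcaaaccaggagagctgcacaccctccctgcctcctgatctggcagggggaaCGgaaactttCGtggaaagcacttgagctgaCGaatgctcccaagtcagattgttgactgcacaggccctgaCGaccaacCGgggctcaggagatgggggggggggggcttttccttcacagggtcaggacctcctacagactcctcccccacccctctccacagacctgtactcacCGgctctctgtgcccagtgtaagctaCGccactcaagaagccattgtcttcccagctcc
Zfp42: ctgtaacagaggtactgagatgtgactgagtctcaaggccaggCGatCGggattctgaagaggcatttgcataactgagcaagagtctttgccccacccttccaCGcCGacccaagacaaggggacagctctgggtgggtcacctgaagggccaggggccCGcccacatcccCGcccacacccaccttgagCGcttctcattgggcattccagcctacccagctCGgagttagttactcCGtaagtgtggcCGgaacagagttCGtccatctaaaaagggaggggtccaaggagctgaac
Sox2: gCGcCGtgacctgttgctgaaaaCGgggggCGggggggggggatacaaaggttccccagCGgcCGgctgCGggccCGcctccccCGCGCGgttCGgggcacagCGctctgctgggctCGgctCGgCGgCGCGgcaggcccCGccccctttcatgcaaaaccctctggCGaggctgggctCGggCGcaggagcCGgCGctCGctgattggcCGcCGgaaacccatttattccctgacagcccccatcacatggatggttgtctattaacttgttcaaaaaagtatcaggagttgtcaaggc
Ncl: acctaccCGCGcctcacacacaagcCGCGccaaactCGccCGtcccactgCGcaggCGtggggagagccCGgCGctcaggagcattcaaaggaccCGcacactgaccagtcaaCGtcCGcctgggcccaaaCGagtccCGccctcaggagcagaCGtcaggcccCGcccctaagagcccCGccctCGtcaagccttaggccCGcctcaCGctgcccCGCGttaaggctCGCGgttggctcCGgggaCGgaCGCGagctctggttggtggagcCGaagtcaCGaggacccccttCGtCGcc
Olfr1197: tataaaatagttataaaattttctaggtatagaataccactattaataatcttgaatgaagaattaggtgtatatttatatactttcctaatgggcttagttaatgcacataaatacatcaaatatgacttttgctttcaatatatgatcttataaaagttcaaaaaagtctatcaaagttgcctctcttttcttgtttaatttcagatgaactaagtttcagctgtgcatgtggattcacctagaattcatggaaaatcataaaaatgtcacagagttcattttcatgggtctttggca
The 4 markers had 11 (Pou5f1), 4 (Nanog), 7 (Esrrb) and 11 (Zfp42) CG dinucleotides in their windows, against 27 for Sox2, 33 for Ncl and 0 for Olfr1197. The ratio of observed to expected CG, which allows for the base composition, was 0.374 for Pou5f1, 0.192 for Nanog, 0.266 for Esrrb and 0.441 for Zfp42. Sox2 stood at 0.819 and Ncl at 0.94. Esrrb, Pou5f1 and Nanog have 2 listed starts each, of which the first listed is shown.

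The value deposited for a gene is a normalized expression signal without a stated formula. Over genes it followed the number of alignments per exon base at least as closely as the number per gene, so levels of different genes are compared here by this value and by its rank within a library (rank 1 is highest, percentile rank 100 is highest). The 2 libraries held their values on different ranges. The highest value was 1.63 in replicate 1 and 34.1 in replicate 2, while the values at the 90th percentile were 0.292 and 0.294. The 100 highest genes held 3.68% of the summed values in replicate 1 and 18.5% in replicate 2. Ranks, not values, are therefore set side by side between the libraries.

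A gene was counted as on when its value was at least 0.001, the minimum of the authors' shorter tables, in both libraries. Of the 28250 genes, 17481 were on (61.9%), 2195 reached the minimum in 1 library alone (7.77%) and 8574 lay under it in both (30.4%). Of the last group, 6582 were listed at 0 in both. With a minimum of 0.01 in both libraries, 12707 genes were on (45%). A total of 2318 genes (8.21%) were in the highest 10% of both libraries. No test applies to these counts, since there is 1 group of 2 libraries. At the minimum itself, D130061D10Rik (0.00103 and 0.001) and Stxbp5l (0.00105 and 0.00101) lay just inside, and F630040L22Rik (0.00097 and 0.00095) and Rrh (0.00093 and 0.00099) just outside.

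**Figure D1:**
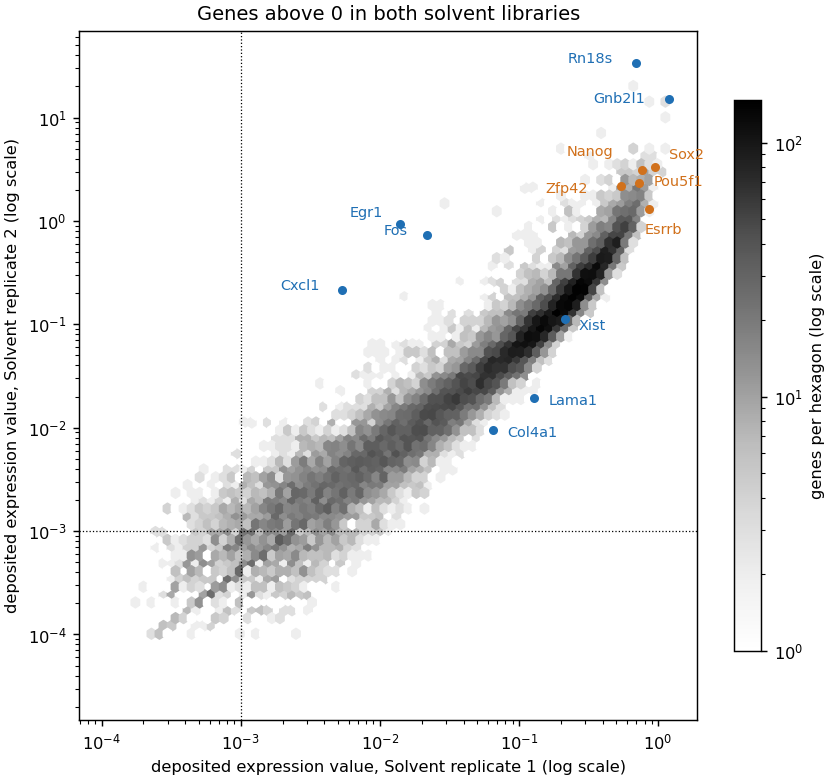
Deposited expression value of each gene in Solvent replicate 1 (x axis, log scale) and Solvent replicate 2 (y axis, log scale), with shading for the number of genes per hexagon and dotted lines at the minimum of 0.001. Only genes above 0 in both libraries are drawn. The stem cell factors (orange) lie at the upper end of both axes, Egr1, Fos and Cxcl1 lie far above the band and Lama1 and Col4a1 below it.

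The deposited alignments give the depth behind these values. The file deposited with replicate 1 held 23467935 alignments, of which 53.2% repeated a position and strand already seen, and that of replicate 2 held 9785619, each at a position of its own. Over the 21969 genes matched to GENCODE M1, Spearman's rho between value and alignments per exon base was 0.960 for replicate 1 with its own file and 0.983 with the file of replicate 2. For replicate 2 it was 0.958 with its own file and 0.984 with the file of replicate 1. The mitochondrial genes ND5 and ND6 were the highest in replicate 1, at 1.59 and 1.63, and were listed at 0 in replicate 2, whereas only the file deposited with replicate 2 held mitochondrial alignments (13431). Fosb, listed at 0 in replicate 1 and at 0.132 in replicate 2, had 1179 exon alignments in the file deposited with replicate 1 and 0 in that of replicate 2. Replicate numbers here are those of the values. A value of 0.001 to 0.002 stood for a median of 2 to 6 alignments on the gene's exons, depending on the pair of files. Genes just over the minimum thus rest on a few alignments, and a gene listed at 0 is not shown to be silent, since a count of 0 allows up to 3.

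All 17 core and naive pluripotency factors were on, against 61.9% of all genes. Their median percentile rank was 95.6 in replicate 1 and 96.6 in replicate 2, and 15 of the 17 were in the highest 10% of both libraries. Sox2, the partner of Pou5f1 on DNA, stood highest of the list by mean rank, at 0.950 and 3.35 (ranks 25 and 89). Prdm14, a repressor of the primed state, and Gbx2, a homeobox factor downstream of LIF, were the lowest together with Nr5a2, a nuclear receptor that can replace Pou5f1 in reprogramming. Prdm14 had 0.260 and 0.0840, Gbx2 had 0.151 and 0.0698, and Nr5a2 had 0.333 and 0.294. All 3 were still above the median gene by a wide margin.

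The 23 other stem cell markers were also on in both libraries, and 15 were in the highest 10% of both. Trim28, a corepressor of retroviral elements, had 0.919 and 3.82. Fbxo15, long used as a reporter of the ESC state, had 0.710 and 1.75, and Tdgf1 (Cripto), the co-receptor of Nodal, had 0.603 and 4.03. L1td1, an RNA-binding protein of ESCs, had 0.741 and 1.46, and Tdh, the threonine dehydrogenase of mouse ESCs, had 0.665 and 1.57. At the other end stood Lin28b (0.143 and 0.113), Dppa3 (0.0162 and 0.0234), the Stella gene of the germ line and naive cells, and Fut4 (0.00279 and 0.00209). Fut4 is an enzyme that can make the SSEA-1 antigen, and its value does not give the level of that antigen. Fut4 was at ranks 16954 and 16612, within reach of the minimum.

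Genes of neighbouring pluripotent states were on at middle ranks. Of 14 primed epiblast genes, 13 were on, with median percentile ranks of 62.2 and 73.5. Otx2 (0.352 and 0.279), Sox4, Dnmt3b and Zic2 were among the highest of this list, whereas Sox3 (0.00446 and 0.00538) and Fgf5 (0.00217 and 0.00199), a defining gene of the primed epiblast, were close to the minimum and Cer1 was listed at 0 in both. Zic2 had 0.0852 in replicate 1 and 0.511 in replicate 2, so its level differed more between the libraries than that of the others named. Of the 8 listed genes of the 2-cell-like state, a rare and transient state of ESC cultures, 7 were on, but only Eif1a (0.648 and 1.31) stood high. Eif1a is by name a translation initiation factor and is counted among the 7, so its level is no measure of this state. Zscan4d had 0.0415 and 0.0394, Zscan4c 0.00988 and 0.0125, Zscan4f 0.00615 and 0.00862 and Tdpoz4 0.00092 and 0.00153. The Zscan4 copies are nearly identical, so the share of each is uncertain. In bulk RNA, fewer cells of a type and less RNA per cell cannot be told apart.

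Lineage genes lay far below the pluripotency genes and near the middle of all genes. Of the 190 genes on the 13 lineage lists, 125 were on (65.8%), 28 reached the minimum in 1 library and 37 lay under it in both. The share on lay between the 61.9% of all genes and the 71.2% of matched protein-coding genes. The median percentile ranks of the lineage genes were 46.9 and 47.5, against 92.2 and 92.1 for the 62 pluripotency genes. Only 6 lineage genes were in the highest 10% of both libraries, and 67 reached 0.01 in both. The lists differed in how many members were on, from 11 of 12 for primitive endoderm to 2 of 12 for epidermis. The counts for single lists are to be read against the shares of all genes and of protein-coding genes given above.

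**Figure D2:**
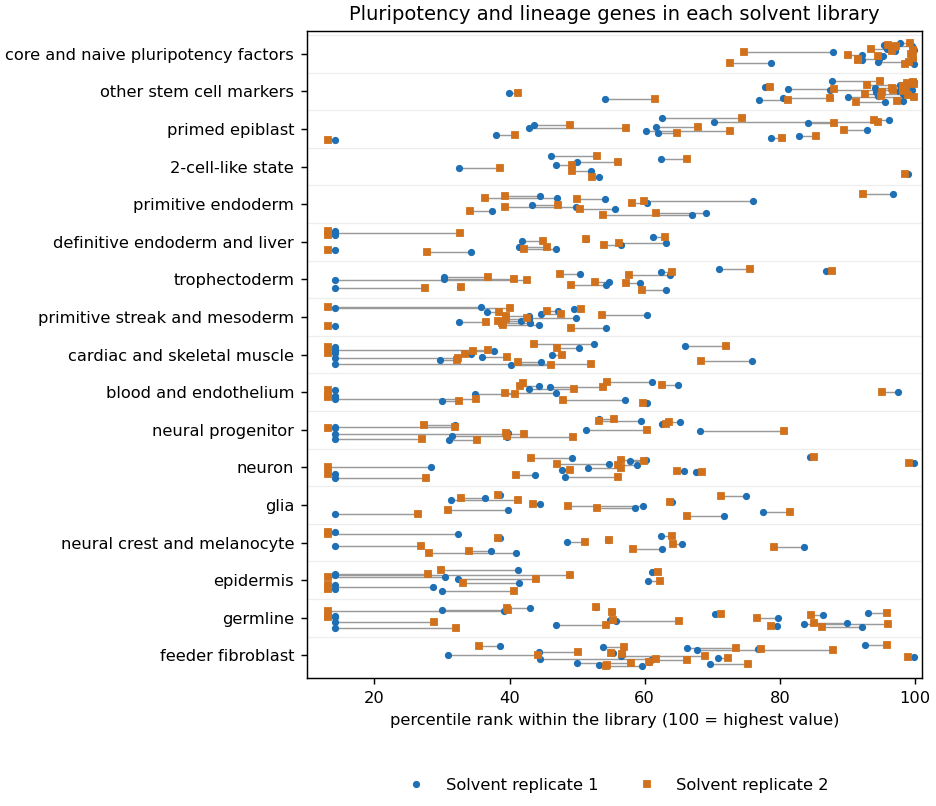
Percentile rank (x axis, 100 is the highest value) of each member of the pluripotency and lineage lists (y axis), with a blue circle for Solvent replicate 1 and an orange square for Solvent replicate 2 joined by a line. Core pluripotency factors crowd at the right, while most lineage genes lie between the rank of genes at 0 (14.1 and 13.2) and the middle.

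Primitive endoderm genes, which mark the extraembryonic layer that arises beside the epiblast, were on in 11 of 12 cases. Sparc, a matrix protein, had 0.483 and 0.378. Lama1 (laminin alpha 1) had 0.129 and 0.0194, Dab2 0.0772 and 0.0238, Col4a1 0.0650 and 0.00960 and Hnf4a 0.0334 and 0.0160. The transcription factors that define the lineage were lower than these, with Gata4 at 0.0195 and 0.00637, Gata6 at 0.00971 and 0.00167, Sox7 at 0.00501 and 0.00166, Sox17 at 0.00686 and 0.00113 and Foxa2 at 0.00197 and 0.00082. Ranks were higher in replicate 1 for 11 of the 12, as they were for 12092 of all genes, against 9572 higher in replicate 2. This direction is that of the values alone, since those of each library followed the other's alignment file more closely. In trophectoderm, the outer layer of the blastocyst, 9 of 14 genes were on. Tcfap2c (0.248 and 0.239), which ESCs also use, and Tead4 (0.0913 and 0.0898) were the highest, and Cdx2 (0 and 0.00020), Gata3 (0 and 0.00248) and Elf5 (0.00096 and 0.00068), which define the lineage, were not on.

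Of 16 genes of primitive streak and mesoderm, 12 were on but 0 reached 0.01 in both libraries. Mesp2 had 0.0332 and 0.00934, Eomes 0.0166 and 0.00539, Tbx6 0.00953 and 0.00646 and T (Brachyury), the defining factor of the streak, 0.00699 and 0.00354. Evx1 was listed at 0 in both, and Wnt3 and Wnt3a were each at 0 in 1 library. In definitive endoderm and liver, 7 of 12 were on, led by Hhex (0.0365 and 0.0277) and Cxcr4 (0.0445 and 0.0127), and Alb, Ttr and Nkx2-1, markers of liver and of lung or thyroid, were at 0 in both. Of 16 muscle genes, 8 were on. Des (desmin) had 0.127 and 0.0480 and Tnni3 0.0589 and 0.0661, whereas the muscle determination factor Myod1 and the heart factor Tbx5 were at 0 in both.

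Blood and endothelium had 11 of 16 genes on (68.8%, against 61.9% of all genes). Pecam1 (CD31), an adhesion molecule of endothelium that mouse ESCs also carry, was high at 0.529 and 0.567, and Tek (0.0539 and 0.0264) and Cd34 (0.0334 and 0.0193) followed. The pan-leukocyte gene Ptprc and the globins Hbb-b1 and Hbb-y were listed at 0 in both libraries. Epidermis had 2 of 12 on, Sbsn (0.0357 and 0.0248) and Krt10 (0.0339 and 0.0257), with Ivl and Dsg1a at 0 in both.

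Neural lists had shares on from 53.3% to 81.2%, against 61.9% of all genes. Of 15 neural progenitor genes, 8 were on. Msi1, an RNA-binding protein of stem cells, had 0.0718 and 0.133, Prom1 0.0558 and 0.0295, Pax6 0.0421 and 0.0283, Sox1 0.0299 and 0.00897 and Nes (nestin) 0.0117 and 0.0204. The proneural factors Neurog1 (0 and 0) and Neurog2 (0 and 0.00058) were not on. Of 16 neuronal genes, 13 were on, and Stmn2, a regulator of microtubules, stood at 0.856 and 1.99 (ranks 60 and 234), beside Tubb3 (0.215 and 0.189), Nefh (0.0681 and 0.0487) and Nefl (0.0585 and 0.0333). Dcx (0 and 0.00021) and Slc17a6 (0.00025 and 0) were under the minimum. Mtap2 (Map2) was listed at 0 in both although 510 and 459 distinct alignment positions fell on its exons, so its 0 does not stand for absent reads. Glia had 8 of 12 on, with Cnp at 0.140 and 0.142 and Aqp4 at 0 and 0.00009. Neural crest and melanocyte genes had 7 of 12 on, led by Mitf (0.206 and 0.120), with Tyr (tyrosinase) at 0 in both.

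Of 20 germline genes, 14 were on (70.0%, against 61.9% of all genes) and 11 were at 0.01 or more in both. Sycp3, of the synaptonemal complex of meiosis, had 0.358 and 0.630. Dazl, an RNA-binding protein of germ cells, had 0.334 and 0.209. Mael, of the piRNA pathway, had 0.292 and 0.189, Stra8, a gene induced by retinoic acid at meiotic entry, 0.241 and 0.184, and the oocyte factor Gdf9 0.205 and 0.653. The protamines Prm1 and Prm2 of late spermatids were at 0 in both and Nanos2 was at 0 and 0.00030.

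Feeder cells would add fibroblast RNA. Of the 20 fibroblast genes, 18 were on, with median percentile ranks of 58.1 and 61.1 and 3 at 0.1 or more in both libraries. Fn1 (fibronectin, 0.872 and 1.73) and Vim (vimentin, 0.345 and 0.630) led, followed by S100a4 (0.0685 and 0.242), Thy1 (0.135 and 0.102) and Col1a2 (0.0810 and 0.0883). Of the other fibrillar collagens of fibroblasts, Col1a1 had 0.0146 and 0.0101 and Col3a1 had 0.00992 and 0.0156, and Prrx1 (0.00494 and 0.00618), Lum (0.00066 and 0.00302) and Twist2 (0.00234 and 0.00097) were the lowest. Ranks were higher in replicate 2 for 15 of the 20, against 9572 of all genes, with 12092 higher in replicate 1. Values of each library followed the alignment file deposited with the other more closely, so this direction is that of the values alone. The part of feeder RNA in these values was not tested.

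**Figure D3:**
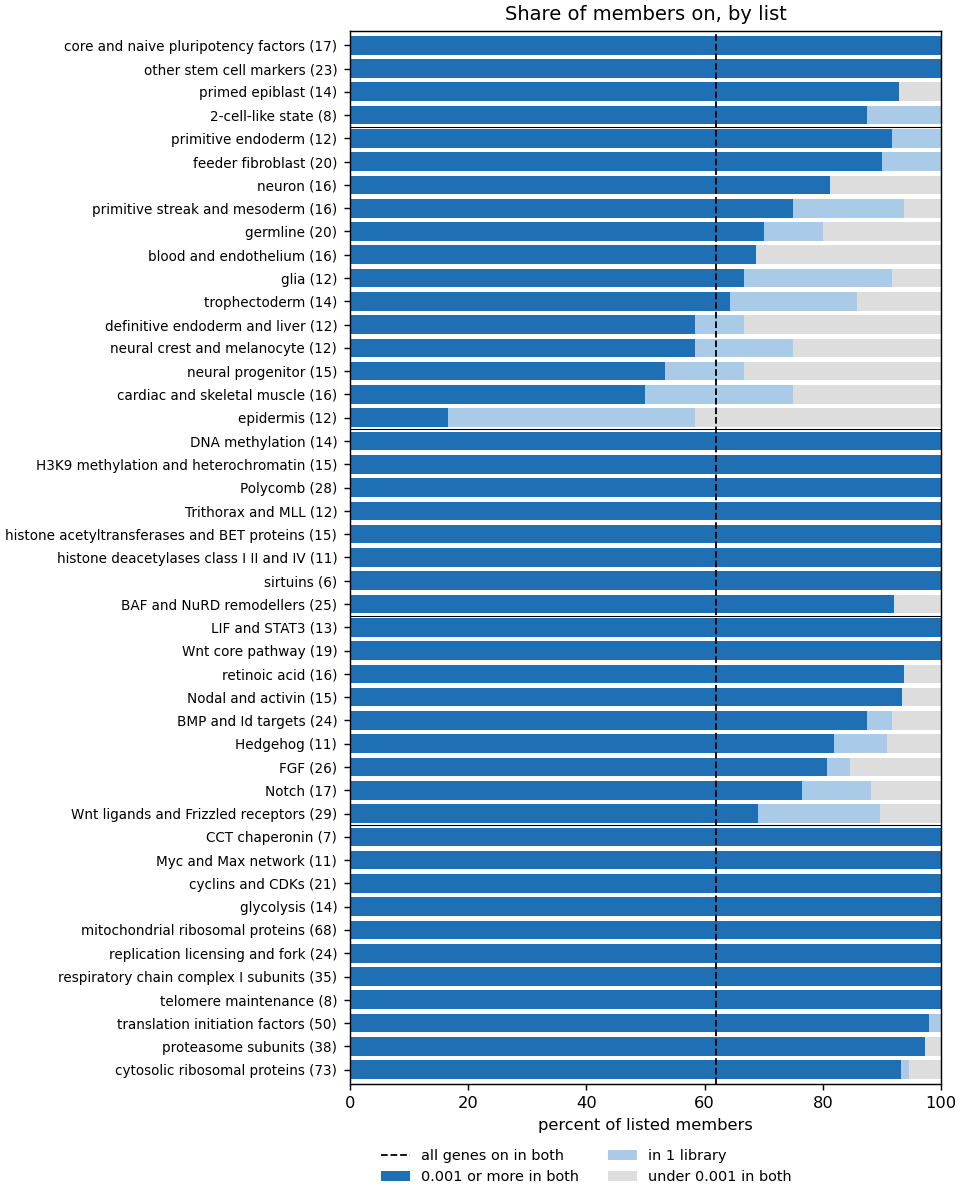
Percent of the listed members (x axis) that were at 0.001 or more in both solvent libraries (dark blue), in 1 library (light blue) or under 0.001 in both (grey), for lists of pluripotency, lineage, chromatin regulator, signalling and housekeeping genes from top to bottom, with the number of members in brackets. The dashed line is the 61.9% of all genes on in both, and the chromatin lists stand at or near 100.

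Chromatin regulators were on almost throughout. Of 126 genes on 8 lists, 124 were on in both libraries (98.4%, against 61.9% of all genes). A total of 121 reached 0.01 in both, and the median percentile ranks were 84.8 and 84.6. The exceptions, Actl6b (0 and 0.00099) and Dpf3 (0.00084 and 0.00039), are subunits that neurons and muscle put into their forms of the BAF complex. Dpf1 (0.0371 and 0.0281) and Smarcd3 (0.129 and 0.0478), also subunits of such forms, were on. The ESC forms, Actl6a (0.496 and 0.818), Smarcc1 (0.423 and 0.659) and Arid1a (0.371 and 0.592), were high, and the ATPase Smarca4 (Brg1, 0.260 and 0.180) stood above its paralogue Smarca2 (0.0196 and 0.0149).

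All 11 histone deacetylases were on. Hdac2, a class I enzyme, had 0.635 and 1.20 (ranks 321 and 497) and was the highest of the family in both libraries. Hdac3 had 0.366 and 0.250, Hdac6 0.261 and 0.246, Hdac5 0.111 and 0.193 and Hdac4 0.141 and 0.128. Hdac1 had 0.0311 in replicate 1 and 0.165 in replicate 2, a change of place from rank 11361 to 4737. Hdac9 was the lowest in both, at 0.00918 and 0.00530. The 6 sirtuins matched were on, from Sirt1 (0.482 and 0.612) to Sirt5 (0.0825 and 0.0450). All 15 acetyltransferases and bromodomain proteins were on, with Hat1 at 0.894 and 3.03, Brd2 at 0.497 and 0.983 and the testis gene Brdt lowest at 0.0302 and 0.0238.

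DNA methylation genes were on in 14 of 14 cases. Tet1, which oxidises methylcytosine, had 0.717 and 0.936, Uhrf1, which brings Dnmt1 to replicated DNA, 0.481 and 1.62, and Dnmt1, the maintenance enzyme, 0.457 and 0.488. The de novo enzymes followed, with Dnmt3a at 0.328 and 0.379, Dnmt3b at 0.196 and 0.195 and their cofactor Dnmt3l at 0.438 and 0.367. Tet3 (0.0246 and 0.0177) and Tdg (0.0145 and 0.00772) were the lowest. Among the 28 Polycomb genes, all on, Rbbp4 (0.647 and 2.55), Mtf2 (0.704 and 1.34), Eed (0.597 and 1.26), Phc1 (0.671 and 0.770) and Jarid2 (0.531 and 1.18) led. The methyltransferase Ezh2 (0.543 and 0.912) stood above Ezh1 (0.204 and 0.118), and Cbx7 (0.575 and 0.813) above Cbx2 (0.0837 and 0.0411) and Cbx8 (0.00259 and 0.0104), all of them subunits that bind trimethylated H3K27. Of 12 Trithorax and MLL genes all were on, led by the shared core subunits Ash2l (0.748 and 2.12), Dpy30 (0.680 and 2.27) and Wdr5 (0.544 and 0.808). The 15 genes of H3K9 methylation were on, from Trim28 and Cbx1 (0.630 and 3.37) to Cbx3 (0.0416 and 0.0979) and Kdm4b (0.0803 and 0.0521).

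Signalling pathways differed in which of their parts were on. Of the 170 genes on the signalling lists, 145 were on (85.3%, against 61.9% of all genes). All 13 LIF and STAT3 genes were on. The transducer Stat3 had 0.447 and 0.439, its feedback inhibitor Socs3 0.448 and 0.233, the shared receptor chain Il6st (gp130) 0.240 and 0.217, the ligand receptor Lifr 0.242 and 0.188 and the kinase Jak1 0.235 and 0.134. The ligand Lif itself was at 0.0188 and 0.0457, and Il6ra (0.0119 and 0.00723) and Socs1 (0.00754 and 0.0105) were the lowest.

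Of 15 Nodal and activin genes, 14 were on. The ligand Nodal had 0.239 and 0.227, its co-receptor Tdgf1 0.603 and 4.03, its inhibitors Lefty1 0.254 and 0.771 and Lefty2 0.179 and 0.245, and Smad2, which carries the signal, 0.275 and 0.217. The receptor Acvr1c was at 0 and 0.00005. Of 24 BMP genes, 21 were on. Smad4 (0.354 and 0.339), the inhibitory Smad7 (0.233 and 0.264), the receptor Bmpr1a (0.253 and 0.184) and the targets Id2 (0.109 and 0.205) and Id3 (0.0646 and 0.200) were among the higher ones. Of the ligands, Bmp4 had 0.130 and 0.0474, while Bmp2 (0.00041 and 0.00045) and Bmp5 (0.00089 and 0.00038) were under the minimum and Bmp8a (0.00267 and 0.00035) was over it in 1 library.

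Of 26 FGF genes, 21 were on, and Fgf4, the ligand by which ESCs drive their own exit from the naive state, stood far above the rest at 0.573 and 0.397. The receptor Fgfr1 had 0.198 and 0.149, Fgf17 0.119 and 0.121, Fgf15 0.115 and 0.0498 and Fgf1 0.0563 and 0.0974. Fgf6 and Fgf16 were at 0 in both. Wnt ligands and Frizzled receptors were on in 20 of 29 cases, with the receptors Fzd5 (0.403 and 0.544) and Fzd7 (0.361 and 0.677) alone at 0.1 or more in both libraries. Wnt1 and Wnt9b were at 0 in both. The 19 core genes of the pathway were all on, with the highest level for Ctnnb1 (beta-catenin, 0.918 and 2.70), and with Tcf7 (0.259 and 0.244) and Gsk3b (0.190 and 0.336) among the next. They include Tcf3 (0.303 and 0.383), which is in these files the E2A gene on chromosome 10 and not the Wnt effector Tcf7l1 (0.153 and 0.193) that once shared its symbol. Axin2, a target of the pathway, was low at 0.0208 and 0.0336.

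Notch genes were on in 13 of 17 cases. The DNA-binding partner Rbpj (0.337 and 0.275) and Hes1 (0.277 and 0.281) were the highest, and the receptors Notch1, Notch2 and Notch3 lay between 0.0359 and 0.0941. The ligand Dll4 (0 and 0.00063) and the effector Heyl (0 and 0.00014) were under the minimum in both libraries. The effectors Hes5 (0 and 0.00235) and Hes7 (0 and 0.00133) reached it in replicate 2 alone. Of 11 Hedgehog genes, 9 were on. The receptor Ptch1 had 0.353 and 0.484, and the factors Gli2 (0.238 and 0.198) and Gli1 (0.210 and 0.183) followed, while the ligand Shh (0.00038 and 0.00032) was under the minimum and Ihh (0.00251 and 0.00017) and Dhh (0.00229 and 0.00191) were near it. Retinoic acid genes were on in 15 of 16 cases, led by the binding protein Crabp1 (0.308 and 0.347) and the receptor Rarg (0.219 and 0.215). The synthesis enzyme Aldh1a1 was at 0 and 0.00042, and the receptor Rarb, itself a target of the pathway, at 0.00408 and 0.00215.

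The highest single values were those of ND6 and ND5 in replicate 1 and of Rn18s (34.1) in replicate 2. Among the 10 with the highest mean percentile rank were Gnb2l1 (Rack1 of the ribosome, 1.20 and 15.1), Hsp90ab1 (a chaperone, 1.21 and 14.2), Ncl (nucleolin, 1.14 and 15.3), Atp5b (ATP synthase, 1.19 and 8.66), Hnrnpa2b1 (0.984 and 12.1), Rpl8 (1.07 and 10.1), Serbp1 (1.09 and 8.96) and the unnamed LOC100502827 and LOC100504337. Sox2 came at place 25 of this order. All 7 matched subunits of the CCT chaperonin, which folds actin and tubulin, were in the highest 10% of both libraries, with median percentile ranks of 99.6 and 99.5, from Cct8 (0.865 and 3.40) to Tcp1 (0.752 and 1.94).

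Genes of proliferation were on without exception on the lists used. All 24 replication genes reached 0.1 in both libraries, and the helicase subunits Mcm3 (0.790 and 1.77), Mcm6 (0.740 and 1.52) and Mcm5 (0.661 and 1.13) led. Of the 21 cyclins, CDKs and inhibitors, Cdk4 (0.756 and 2.39), Cdk1 (0.698 and 1.73), Ccnb1 (0.558 and 1.86) and Ccna2 (0.667 and 0.971) were the highest, and the inhibitors of the Ink4 class, Cdkn2b (0.00667 and 0.00680), Cdkn2c (0.0130 and 0.0134) and Cdkn2d (0.00920 and 0.00298), the lowest. In the Myc network Mycn (0.480 and 1.13) stood above Myc (0.0990 and 0.0418) and Mycl1 (0.0930 and 0.0500). All 8 telomere genes were on, with Dkc1 at 0.622 and 2.06, Terf1 at 0.574 and 1.15 and Tert, the reverse transcriptase of telomerase, at 0.0883 and 0.0341.

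Of the 14 glycolysis genes all were on, and Aldoa (0.590 and 2.33), Hk2 (0.562 and 2.06), Ldha (0.544 and 2.38), Pkm2 (0.464 and 4.30) and Pfkp (0.634 and 0.840) led. Complex I of the respiratory chain was on in 35 of 35 cases with median percentile ranks of 94.8 and 97.7, mitochondrial ribosomal proteins in 68 of 68 with 93.0 and 92.1, the proteasome in 37 of 38 with 96.2 and 96.1, and initiation factors in 49 of 50 with 95.1 and 96.3. The proteasome gene at 0 in both was Psmb11, the subunit of thymic epithelium.

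Cytosolic ribosomal proteins did not follow this evenness. Of 73, 68 were on, but the median percentile rank was 77.7 in replicate 1 and 97.7 in replicate 2. By the values, 68 ranked higher in replicate 2, against 9572 of all genes, with 12092 higher in replicate 1. Rps16, for example, had 0.0293 and 1.65. Rpl28, Rps2 and Rps23 were listed at 0 in both libraries, although 113 to 227, 173 to 287 and 19 to 55 distinct alignment positions fell on their exons. Ribosomal protein genes have many processed pseudogenes of like sequence, so their single values are uncertain, and the part of such copies in these values was not tested. Gapdh (0.114 and 1.93), Eno1 (0.101 and 0.294) and Pgk1 (0.0767 and 0.272) also ranked lower in replicate 1.

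Families of developmental transcription factors differed in the share on, which is to be read against the 61.9% of all genes and the 71.2% of matched protein-coding genes. Of 33 Hox genes, which pattern the body axis, 18 were on (54.5%), 0 reached 0.1 in both libraries and the median percentile ranks were 36.9 and 40.3. Hoxb9 (0.0453 and 0.0405) and Hoxc13 (0.0517 and 0.0328) were the highest, and Hoxb5 and Hoxd12 were at 0 in both with 0 alignments on their exons. Pax genes were on in 3 of 9 cases (33.3%), T-box genes in 7 of 16 (43.8%), LIM homeobox genes in 6 of 12, and Irx and sine oculis homeobox genes in 7 of 12 (58.3%). In each of these families 1 member or none reached 0.1 in both libraries, and the T-box gene that did was Tbx3 (0.435 and 0.790), a member of the naive circuit. POU genes were on in 8 of 14 cases (57.1%), with Pou5f1 far above Pou4f1 (0.0460 and 0.0640). Sox genes were on in 17 of 19 (89.5%), with Sox2 above the rest, and Forkhead genes in 27 of 42 (64.3%), led by Foxo3 (0.233 and 0.272). These counts rest on values close to the minimum. With a minimum of 0.005 the Hox genes on were 8, the Sox genes 8, the Forkhead genes 16, the T-box genes 4 and the LIM homeobox genes 1, and with 0.01 they were 4, 7, 15, 1 and 0. Klf genes were on in 17 of 17 cases, 15 of them at a minimum of 0.005, with median percentile ranks of 79.8 and 83.0. Klf9 had 0.629 and 1.12, Klf2 0.397 and 1.94 and Klf5 0.404 and 0.349. Of 325 genes with Zfp symbols 311 were on, led by Zfp207 (0.707 and 1.38), Zfp281 (0.640 and 1.30), Zfp42 and Zfp57 (0.804 and 0.840), a keeper of imprints.

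Clustered histone genes, whose transcripts mostly lack a poly(A) tail, were on in 47 of 57 cases (82.5%, against 61.9% of all genes) at middle ranks (46.2 and 49.4). They were read from RNA that had passed through 2 rounds of poly(A) selection. Hist1h2bc (0.236 and 0.239) and Hist1h1c (0.0907 and 0.0637), which can carry a tail, were the highest.

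Genes under the minimum included most members of the sensory, barrier and placental families listed. Of 1080 olfactory receptors, 15 were on (1.39%), 25 reached the minimum in 1 library and 1016 were at 0 in both. Olfr985 (0.0394 and 0.00993) and Olfr986 (0.00905 and 0.00671) were the highest, and both lie on chromosome 9, from 39934509 to 39935624 and from 39994664 to 39995679. Of 284 vomeronasal receptors 5 were on, of 35 bitter taste receptors 1, of 49 keratin-associated proteins 0, of 27 prolactin genes 0, of 12 alpha-defensins 0, of 40 beta-defensins 5 and of 16 major urinary proteins 2. Keratins were on in 13 of 46 cases and Cyp2 genes of drug metabolism in 12 of 45. Of the 17 genes taken by the interferon pattern the 1 that was on was Ifnar1, which is the receptor and no ligand. Potassium channels were on in 39 of 79 cases (49.4%) and glutamate and GABA receptors in 20 of 46 (43.5%), nearer to the 61.9% of all genes. Slc6 transporters, which include Slc6a6 for taurine (0.494 and 0.464), were on in 12 of 18 cases (66.7%). That share lay between the 61.9% of all genes and the 71.2% of matched protein-coding genes. Copies within these families are alike in sequence, so single members are uncertain.

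On the mm9 map such genes lay in runs. Of the 5326 matched genes under the minimum in both libraries, 1677 lay in 82 runs of at least 10 neighbours that were all under it, and 1018 of these were olfactory or vomeronasal receptors. The longest run was on chromosome 2 from 88568810 to 89979352, with 64 olfactory receptor genes from Olfr1197 to Olfr32, all at 0. A run of 61 genes from Vmn1r91 to Vmn1r183 lay on chromosome 7 from 20686507 to 24840710. The next were 55 genes from Olfr987 to Olfr1056 on chromosome 2 (85171054 to 86196594), 54 from Olfr1128 to Olfr1195 on the same chromosome (87384764 to 88523887) and 49 from Olfr605 to Olfr649 on chromosome 7 (110590691 to 111344474). Other runs held the defensins of chromosome 8 (33 genes from Gm15319 to Defb13) and the prolactin cluster of chromosome 13 (24 genes from Prl to Prl5a1).

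CpG content at the gene start differed between the classes, although the 4 markers, with printed windows at ratios of 0.192 to 0.441, lay well under most genes of their own class. The printed windows are at RefSeq starts and the class shares at GENCODE M1 starts, so the markers and their class are not measured at the same set of starts. Over 19957 protein-coding genes of GENCODE M1, read from the mm9 genome in the same window of 250 bases before to 50 after the start, the ratio of observed to expected CG was at least 0.6 in 81.0% of the 2197 genes in the highest 10% of both libraries. It was so in 59.4% of the 12022 other genes that were on, in 19.4% of the 1198 genes on in 1 library and in 7.73% of the 4540 genes under the minimum in both. The medians were 0.826, 0.684, 0.306 and 0.165. Without the olfactory and vomeronasal receptors, 10.7% of the 3257 genes under the minimum reached 0.6. Annotated starts of receptor genes often mark the coding sequence and not the transcript start, so their windows may not be promoters.

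**Figure D4:**
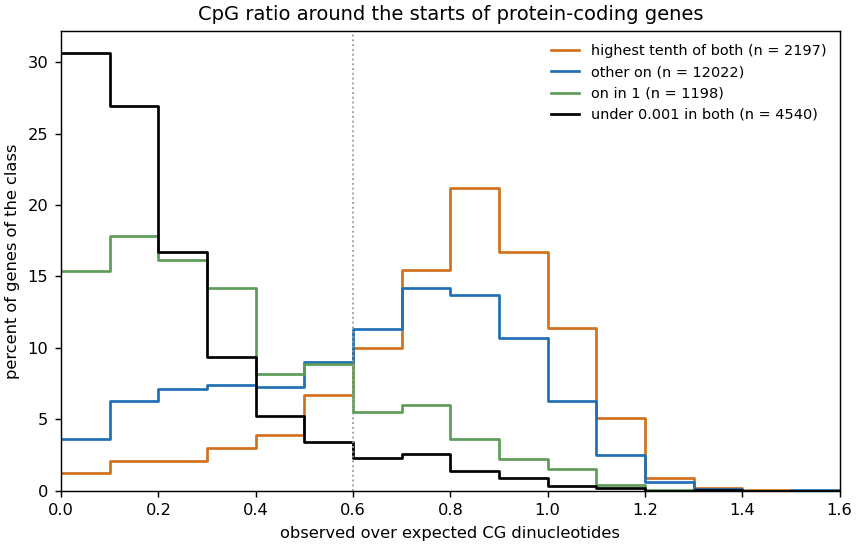
Percent of the genes of a class (y axis) by the ratio of observed to expected CG dinucleotides around the gene start (x axis, bins of 0.1), for protein-coding genes in the highest 10% of both solvent libraries, other genes on in both, genes on in 1 library and genes under 0.001 in both. The dotted line marks 0.6, and the highest class peaks between 0.8 and 0.9 while the class under the minimum peaks between 0 and 0.1.

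Motifs were searched by their letters on both strands in the same windows. TATAAA, which holds only A and T, was in 7.06% of the windows of the highest class and 8.30% of the other on genes. It was in 15.1% of genes on in 1 library and 27.6% of those under the minimum, against 13.0% of all. Without the olfactory and vomeronasal receptors, 22.4% of the windows of genes under the minimum held it. GGGCGG, the core of a GC box, which itself holds a CG, ran the other way at 66.0%, 57.3%, 26.7% and 10.4%, against 45.7% of all. CCAAT was even at 43.2%, 37%, 34.4% and 39.8%, against 38.2%. The octamer ATGCAAAT, bound by POU factors, was in 0.774%, 1.53%, 1.92% and 2.62%, against 1.72%. In the printed windows the octamer occurred in that of Zfp42, GGGCGG in those of Pou5f1, Zfp42, Sox2 and Ncl and TATAAA in that of Olfr1197. These are matches of letters and not shown to be binding sites.

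The CpG ratio did not follow level on every list. Over all 19957 protein-coding genes, 47.6% reached 0.6 (median 0.568), and the counts for single lists are to be read against that share. Of the 17 core pluripotency factors, all on, 7 reached 0.6 (median 0.528), and of the 23 other stem cell markers 7 did (median 0.462). Among housekeeping lists, 59 of 68 mitochondrial ribosomal proteins, 19 of 24 replication genes and 40 of 49 initiation factors reached it. Among families of developmental factors the share varied, with 19 of 32 Hox genes (median 0.704), 10 of 12 Irx and sine oculis homeobox genes, 8 of 12 LIM homeobox genes, 29 of 41 Forkhead genes, 10 of 17 Sox genes, 7 of 12 POU genes, 7 of 16 T-box genes, 4 of 9 Pax genes and 2 of 6 Gata genes. Of 1060 olfactory receptors 4 did. Among the lineage genes with a window, 40 of 120 that were on, 6 of 27 on in 1 library and 6 of 34 under the minimum reached 0.6.

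Ranks in the 2 libraries were close over most genes. Spearman's rho was 0.964 over all 28250 genes and 0.957 over the 17481 genes on, as a description over genes that share a library and are not replicates. Of the genes on, 74.0% were within 5 percentile points and 93.9% within 10. The very top was less shared, with 32 genes common to the top 100 of both libraries, 155 to the top 300, 711 to the top 1000 and 2471 to the top 3000. Short genes ranked higher in replicate 2, by a median of 5.23 percentile points over 305 genes on with up to 500 bases of exon, and genes over 8000 bases lower by a median difference of -1.36 (1410 genes).

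A set of 152 genes on lay over 20 percentile points apart, all of them higher in replicate 2. The 5 largest differences were those of Egr1 (0.0139 and 0.926, ranks 13327 and 719), LOC100504581 (0.0193 and 0.873), the chemokine Cxcl1 (0.00535 and 0.213), Gm6252 (0.0125 and 0.418) and Fos (0.0219 and 0.737). Egr1 and Fos are immediate early genes, which cells switch on within minutes of serum, growth factors or handling. In the other direction differences stayed under 20 points, with Tnfaip8l3 (0.0202 and 0.00145), 2810410L24Rik (0.124 and 0.0162), Tmem22 (0.0146 and 0.00111), Cadps (0.0237 and 0.00196) and D030020J04Rik (0.0202 and 0.00165) as the largest.

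A list of 23 immediate early and serum response genes, drawn up after Egr1 and Fos had been seen, gave 22 with a higher rank in replicate 2 and 1, Myc, with a higher rank in replicate 1. Egr1 and Fos are counted, so the direction of this list was in part set in advance. Over all genes, 12092 ranked higher in replicate 1 and 9572 in replicate 2 among those above 0 in either library. Fosb (0 and 0.132) and Egr2 (0 and 0.124) were listed at 0 in replicate 1. Egr3 had 0.00131 and 0.0145, Jun 0.0122 and 0.0798, Srf 0.0554 and 0.239, Cyr61 0.0677 and 0.344 and Ctgf 0.0668 and 0.265. Ier2 (0.277 and 0.562) and Klf6 (0.150 and 0.228) were high in both. The alignments showed the same difference with the libraries the other way round, since 5972 alignments fell on the exons of Egr1 in the file deposited with replicate 1 and 37 in that of replicate 2, and 1179 and 0 on those of Fosb. Which of the 2 libraries had the higher level of these genes can therefore not be read from the files.

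Basement membrane and parietal endoderm genes were listed after Lama1 and Col4a1 had been seen. Of 14, 11 were higher in rank in replicate 1, as were 12092 of all genes against 9572 higher in replicate 2. Both seen genes are counted, so the direction of this list was in part set in advance. Lama1, Col4a1, Col4a2 (0.0856 and 0.0104) and Srgn (0.116 and 0.0177) differed the most in this direction, while Nid2 (0.680 and 1.21) and Lamc1 (0.587 and 0.572) were high in both. Exon alignments of Lama1 were 394 in the file deposited with replicate 1 and 882 in that of replicate 2, again with the libraries the other way round. Of the core pluripotency factors, Prdm14 (percentile ranks 87.8 and 74.7) and Gbx2 (78.7 and 72.6) shifted the most, and the other 15 lay within 5 points.

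**Figure D5:**
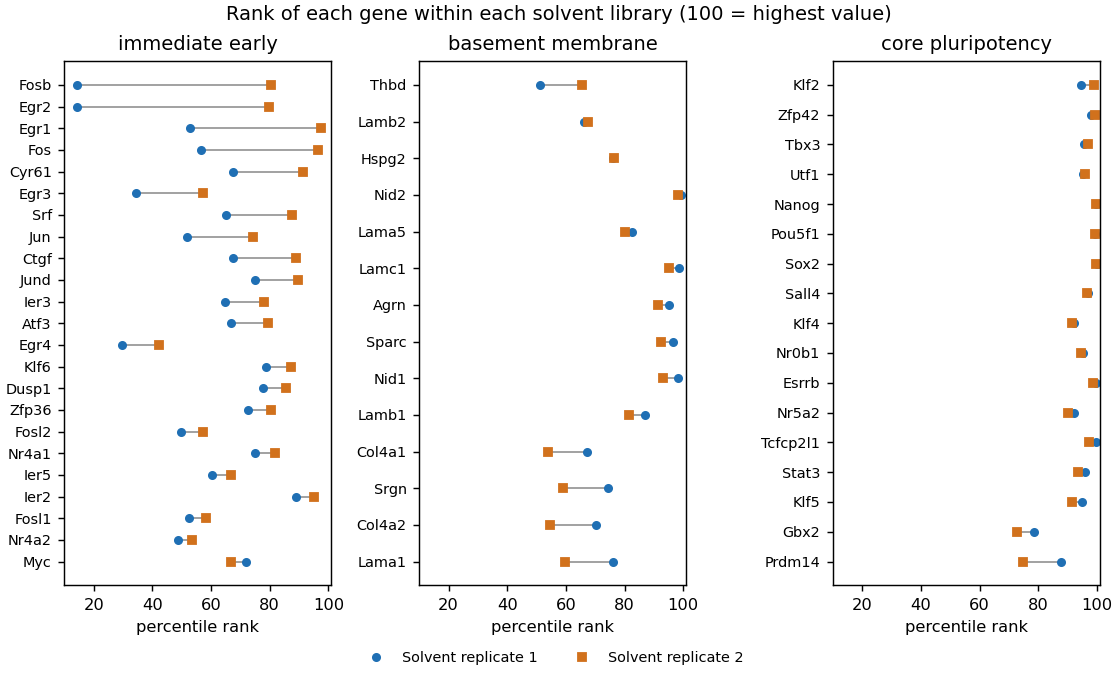
Percentile rank within each solvent library (x axis, 100 is the highest value) of immediate early and serum response genes, basement membrane and parietal endoderm genes, and core pluripotency factors (panels from left to right), with a blue circle for Solvent replicate 1 and an orange square for Solvent replicate 2. Fosb, Egr2, Egr1 and Fos rank far higher in replicate 2, and Lama1 and Col4a2 higher in replicate 1.

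By chromosome, the share of genes on was 69.8% over 21000 autosomal genes, from 62.4% on chromosome 7 to 77.5% on chromosome 12, and 57.3% over 956 genes of the X. Chromosome 7 carries 354 of the olfactory and vomeronasal receptors, and without these genes its share was 76.0%. The X had 6 of them and stood at 57.7% without, under the 66.8% of chromosome 14, the lowest autosome on that count. Of 13 listed Y genes 5 were on. Eif2s3y had 0.492 and 0.690, Ddx3y 0.414 and 0.440, Uty 0.209 and 0.118 and Kdm5d 0.00224 and 0.00125. Xist, the RNA that coats the inactive X of female cells, was listed at 0.213 and 0.112. The Tsix gene overlaps it on the other strand and is expressed in ESCs, and the strand of the reads is not stated in the sources used here, so the Xist value may hold reads of either.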

How the data were processed

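RNA of TBV2 cells was selected for poly(A) in 2 rounds, primed with random hexamers and read on an Illumina GAIIx in reads of 36 bp. Per the study's methods, the authors mapped the reads on mm9, which the submitters' processing notes also name, and made normalized expression values with Genomatix. The deposited unit is a normalized signal per gene. Its formula, the aligner, the software versions and the handling of repeated reads are not given in the sources used here. The authors' shorter tables hold the same signal for genes at 0.001 or more, and were used for their gene names alone. The deposited alignments (35 bases each) were assigned to GENCODE M1 exons, which gave counts for the 21969 genes with a matching symbol (77.8%). The deposited MS-275 to solvent ratios hold the authors' own comparisons and were not used.

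Genes were ranked within each library, ties taking their mean percentile. A gene was on at 0.001 or more in both libraries. A pseudocount of 0.005 was used where values were put on a log2 scale. With 1 group of 2 libraries no test was made and no p-value is given. Members and lists were chosen with earlier results of these data known. Of 643 list genes typed by symbol, 623 were found by symbol and 13 by Entrez identifier, and 40 families were taken by symbol pattern. The genes named are the 4 markers, the 10 highest by mean percentile rank, up to 5 highest and 3 lowest members of each list with its defining members, the 5 largest rank differences in each direction, the 2 genes nearest the minimum on either side, the ends of the 5 longest runs, Xist and 4 Y genes. Other members named for their role, 2 further runs and the immediate early and basement membrane lists were chosen after values had been seen. Some genes that this rule takes are not reported here. The RefSeq promoter table covered under 80% of coding genes, so CpG and motif shares were computed from the mm9 genome at GENCODE M1 starts of 19957 protein-coding genes, and the table served to print windows alone. Calculations used Python 3.11.15, numpy 2.4.6 and pandas 2.3.3 and were tested on simulated data. Alternatives were other minima, each library alone, alignments in place of values, other top lists and other gene sets.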

Additional observations from a re-analysis of the deposited data

Results flagged for a closer look

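A total of 9 genes lay under 0.001 in both solvent libraries although at least 10 distinct alignment positions fell on their exons in both alignment files, which is signal in data outside the expression values. They were Mtap2, Rpl9, Rps2, Gm10031, Rpl28, a, Dynlt1a, Srp54b and Rps23. Rpl9 had values of 0 and 0.00063 with 592 and 358 positions in the files deposited with replicates 1 and 2, and the other 8 genes were at 0 in both. Their count among the genes under the minimum shows that a listed 0 did not always stand for absent reads. The cause was not tested.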

How the results depend on the processing

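The minimum that defines a gene as on moved the counts most. Under a minimum of 0.01, 13927 genes lay under it in both libraries, with 53.6% of autosomal and 42.1% of X genes on. Under 0.02, 15574 lay under it, 11072 were on and 17 lists had at least 90% of their members on, against 31 at 0.001. With at least 3 distinct alignment positions in place of the value, 5691 genes were off in both, but over the 21969 matched genes alone, of which 5326 lay under 0.001. Of the genes on, 67.9% at a minimum of 0.005 and 70.5% at 0.01 had a CpG ratio of at least 0.6, and of those under it 12.9% and 16.0%. Spearman's rho was 0.929 over genes with a mean of at least 0.01. The shared genes were 32 for the top 100, 155 for the top 300 and 2471 for the top 3000. With each library left out in turn, the genes on ranged from 18194 to 18963, those under the minimum from 9287 to 10056, lists mostly on from 33 to 36, the share at a CpG ratio of 0.6 from 60.3% to 61.6% for genes on and from 8.64% to 9.50% for the others, and the share on from 71.9% to 74.2% on autosomes and from 59.2% to 62.7% on the X. Of 720 values for single lists under the alternatives, 164 moved by over 1.5 times. Over distinct positions per kb of exon, the rank correlation was 0.978. Analyses by protein-coding genes alone, without receptor genes and with at least 2000 bases of exon were added after seeing the data. No paired analysis was possible because there is 1 group and no contrast.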

Other observations

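Transcript classes outside the coding genes were on to different degrees. Of 649 lincRNA genes matched by symbol, 447 were on (68.9%), against 71.2% of 19957 protein-coding genes, 42.9% of 492 pseudogenes and 35.8% of 786 processed transcripts. Small nucleolar RNA genes were on in 55 of 73 cases by symbol pattern, with median percentile ranks of 62.5 and 69.7. The ribosomal RNA gene Rn18s, at 0.700 and 34.1, was at rank 192 in replicate 1 and at rank 1 in replicate 2, in RNA that had been selected for poly(A).

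Against 61.9% of all genes, collagens were on in 36 of 42 cases (85.7%), claudins of tight junctions in 14 of 23 (60.9%), clustered protocadherins in 4 of 22 (18.2%) and serpins in 21 of 59 (35.6%). Chemokines were on in 10 of 31 cases (32.3%), and the 2 named here ranked higher in replicate 2, Cxcl1 at 0.00535 and 0.213 and Ccl2 at 0.0241 and 0.115.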
